A study of Mus musculus with 20 samples.

Results

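The genes described here are 9 neighbours of Ptprz1 on mouse chromosome 6, Tspan12, Ing3, Cped1, Wnt16 and Fam3c on 1 side and Aass, Cadps2, Wasl and Pot1a on the other. They were chosen by symbol and position. All 9 were found among the 55891 genes of the count table, and all 9 passed the filter on low counts that left 14568 genes for testing. Ptprz1, which encodes a receptor-type protein tyrosine phosphatase, is the gene targeted in these mice. The series set primary renal tubular epithelial cells of Ptprz1 knockout (KO) mice against cells of heterozygous (het) mice, which the study takes as Ptprz1-expressing, in 20 libraries of 5 per group. The groups were KO and het cells given LPS at 100 ng/mL with IFNγ at 10 ng/mL for 24 h, and KO and het cells left untreated as control. LPS activates Toll-like receptor 4 and IFNγ activates interferon signalling. All groups are listed under the strain B6.129-Ptprz1tm1Nmo, so het cells carry 1 copy of the targeted allele too, and no library of wild-type cells was analysed here. The sources used here state neither age nor sex of the mice. The labels name 10 animals, 8 of which gave a stimulated and a control library of 1 genotype. These were animals 3, 6, 8 and 10 as KO and animals 1, 2, 4 and 9 as het. Animals 5 and 7 are listed under both genotypes. A mouse has 1 genotype, so for these animals an ID or a genotype label cannot be right, and which was not tested. The libraries of animals 5 and 7 were kept in the fits of 20 and of 16 libraries unless stated, and left out over animals.

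A targeted allele is inherited together with the chromosome around it. In mice made from 129 stem cells and crossed to C57BL/6, the stretch that flanks the allele can stay of 129 origin. Neighbours of a targeted gene are therefore a usual place to look for differences that go with the allele and not with the protein. The 9 genes have unrelated functions. Wnt16 is a secreted Wnt ligand known for its part in bone, Tspan12 is a tetraspanin that helps Norrin signal through the receptor Fzd4, and Fam3c is a secreted cytokine-like protein linked to epithelial-mesenchymal transition. Ing3 is a subunit of the NuA4/TIP60 histone acetyltransferase, and Pot1a is the shelterin subunit that binds the single-stranded end of mouse telomeres. Wasl (N-WASP) activates the Arp2/3 complex that branches actin filaments, and Cadps2 primes dense-core vesicles for release. Aass is the mitochondrial enzyme that starts lysine breakdown, and Cped1 encodes a protein with cadherin-like and esterase domains whose role is little known.

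Counted in tested genes along the chromosome, Fam3c was the first before Ptprz1, followed outward by Wnt16, Cped1, Ing3 and Tspan12. On the other side the order was Aass, Cadps2, the non-members Iqub and Ndufa5, Wasl and Pot1a. The results on stimulation turn on Wnt16, Ing3 and Tspan12, so the 250 bases before the start of each are given here from RefSeq, build GRCm38.p6, 5′ to 3′ along the gene. They lie at chr6:22287977-22288226 on the plus strand for Wnt16, at chr6:21949321-21949570 on the plus strand for Ing3 (the first of its 2 listed starts) and at chr6:21852534-21852783 on the minus strand for Tspan12. Capitals mark matches, on either strand, to the interferon-stimulated response element (ISRE) or the NF-kB consensus.
Wnt16: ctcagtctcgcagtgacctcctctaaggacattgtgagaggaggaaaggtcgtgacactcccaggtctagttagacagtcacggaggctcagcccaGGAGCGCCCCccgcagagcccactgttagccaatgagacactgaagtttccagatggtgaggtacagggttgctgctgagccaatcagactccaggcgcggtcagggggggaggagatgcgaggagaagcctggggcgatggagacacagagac
Ing3: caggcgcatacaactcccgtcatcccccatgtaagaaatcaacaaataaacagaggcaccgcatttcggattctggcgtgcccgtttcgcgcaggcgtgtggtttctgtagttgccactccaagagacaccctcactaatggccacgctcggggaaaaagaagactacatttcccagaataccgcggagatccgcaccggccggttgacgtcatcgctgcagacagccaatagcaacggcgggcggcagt
Tspan12: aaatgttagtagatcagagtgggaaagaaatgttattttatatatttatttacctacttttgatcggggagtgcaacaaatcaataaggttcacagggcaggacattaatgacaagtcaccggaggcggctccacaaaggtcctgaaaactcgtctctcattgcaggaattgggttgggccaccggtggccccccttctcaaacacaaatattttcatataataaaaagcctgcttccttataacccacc
Wnt16 had 1 match to the NF-kB consensus, while Ing3 and Tspan12 had none to either motif. Of 32851 mouse promoter windows of the same length, 2.98% held the ISRE and 7.25% held the NF-kB consensus. Among all 9 genes, the ISRE was found in none, and the NF-kB consensus in Wnt16, Wasl and Pot1a. These are letter matches and not measured sites.

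Total counts per library were 12899528 to 20411411. The tubular epithelium markers Epcam, Cdh1, Cdh16, Krt8, Krt18 and Pax8 were each detected in all 20 libraries. Pax8 was at 134 to 372 CPM and Cdh16 at 21.8 to 889 CPM. Epcam was at 0.155 to 74.9 CPM and Cdh1 at 0.388 to 198 CPM, with their lowest levels near 0. Krt8 was at 1.09 to 366 CPM and Krt18 at 5.38 to 240 CPM. Of the proximal tubule markers, Lrp2 (17.3 to 261 CPM) and Cubn (2.56 to 35.0 CPM) were above 0 in all libraries, Aqp1 and Hnf4a were at 0 in 1 library each, and Slc34a1 and Slc5a2 were at 0 in 17 and 14 of 20. Animals 4 and 8 went against their stimulation labels. Gbp2, an interferon-induced GTPase, was at 13.04 CPM in the library labelled stimulated of KO replicate 4 (animal 8) and at 13.1 CPM in that of het replicate 5 (animal 4). The other 8 stimulated libraries held 3518 to 11052 CPM. In the control libraries of these animals it was at 1472 CPM (KO) and 496 CPM (het), while the other 8 control libraries held 10.1 to 28.7 CPM. This was known from earlier results of these data, and results are given below with these 4 libraries and, as 16 libraries, without them. Ptprz1 itself had 31 counts over all 20 libraries and 0 counts in 11 of them, with a limit of 0.147 to 0.233 CPM allowed by a count of 0 (3 counts) over all libraries. Its highest levels, 0.454 and 0.370 CPM, were in the stimulated and the control library of KO replicate 4. An exact two-sided permutation test of KO against het gave p = 1 in each state (smallest possible p = 0.00794 with 252 permutations), so at this depth the targeted gene does not check the genotype labels.

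Per kb of merged exon length, Fam3c had the highest mean level over the 20 libraries (29.0 CPM per kb), followed by Wasl (13.8), Wnt16 (8.41), Tspan12 (3.996), Ing3 (2.45), Pot1a (1.38), Cadps2 (0.797), Aass (0.148) and Cped1 (0.128 CPM per kb). Ptprz1, in the middle of the stretch, averaged 0.0066 CPM per kb. Within a library, Tspan12 stood above Ing3 and Cadps2 above Aass in 20 of 20, and Fam3c stood above Wasl, Ing3 above Pot1a and Pot1a above Cadps2 in 19 of 20. The order of Wasl over Wnt16 and of Wnt16 over Tspan12 held in 16 of 20 libraries each, and that of Aass over Cped1 in 11 of 20. The ranges over libraries overlapped for every neighbouring pair in this order. Pot1a varied least, with its highest library 1.61-fold above its lowest in CPM, and Wasl followed at 1.86-fold. Wnt16 varied most among the members above 0 in every library, at 83.0-fold. Cped1 had 0 counts in het stimulated replicate 4 and 47 in KO control replicate 5.

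**Figure D1:**
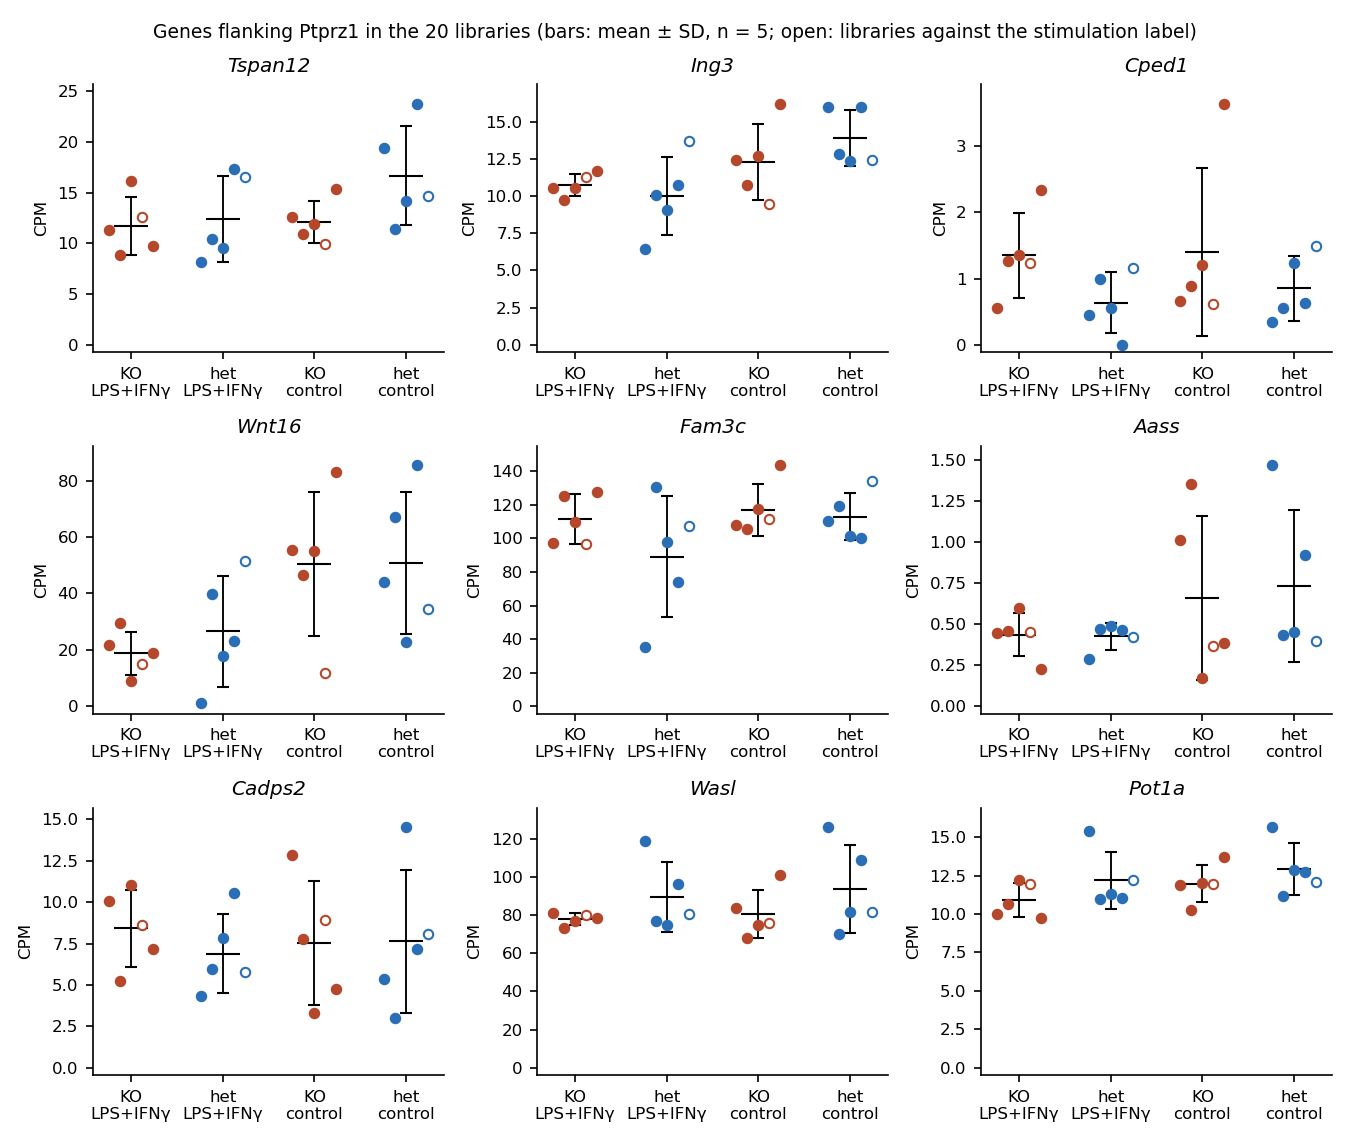
Each panel plots the CPM of 1 gene on a linear axis in 20 libraries, with points for libraries, horizontal marks for the mean and bars for the SD (n = 5 per group), and open points for the 4 libraries of animals 4 and 8. KO and het libraries overlap in every panel and in both states, and Wnt16 spans 1.03 to 85.5 CPM.

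KO cells were first set against het cells without stimulation, to see whether the flanking genes differ with the targeted allele. None of the 9 members was called by edgeR's quasi-likelihood test at an adjusted p under 0.05, as was the case for all 14568 genes tested (0%). At an unadjusted p under 0.05 edgeR had 0 members against 499 genes in all (3.43%). DESeq2 called 2 genes and limma-voom 0, and neither called a member. The groups overlapped in all 9 members, while 0.35% of genes had groups that did not overlap. The median log2 fold change of the members, KO over het, was −0.045, beside 0.0020 over all genes tested, with 4 higher and 5 lower. Without regard to sign, the median was 0.11 in the members and 0.14 over all genes. After LPS with IFNγ edgeR again called 0 members and 0 genes (0%), with 0 members and 366 genes (2.51%) at an unadjusted p under 0.05, and DESeq2 and limma-voom called 0 genes. Here 5 members were higher and 4 lower, with a median log2 fold change of 0.041 beside −0.0020 over all genes. The median absolute log2 fold change was 0.20 in the members, beside 0.14 over all genes. The members' groups overlapped in this state too, as did those of all but 0.137% of genes.

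Of the 3 signalling genes, Tspan12 had the lowest p in control cells. Without stimulation it had 12.5, 10.9, 11.9, 9.93 and 15.3 CPM in KO cells, against 19.4, 11.4, 14.2, 23.7 and 14.7 CPM in het cells. The 2 highest values were those of het animals 1 and 9, and the other 3 het values lay within the KO range. The log2 fold change was −0.39 ± 0.21 (SE; 95% interval −0.82 to 0.045; edgeR adjusted p = 0.999). After stimulation Tspan12 had 11.3, 8.84, 16.1, 12.6 and 9.78 CPM in KO cells, against 8.12, 10.4, 9.55, 17.4 and 16.6 CPM in het cells, a log2 fold change of −0.064 ± 0.21. Wnt16 averaged 50.4 ± 25.5 CPM in KO and 50.8 ± 25.3 CPM in het cells without stimulation (SD, n = 5 each), and 18.9 ± 7.64 CPM in KO and 26.6 ± 19.6 CPM in het cells after it. With this spread its KO over het fold was 1.03 without stimulation (95% interval 0.418 to 2.54) and 0.719 after it (0.289 to 1.79). Fam3c averaged 117 ± 15.4 CPM in KO and 113 ± 14.2 CPM in het control cells, and 111 ± 14.8 CPM in KO and 89.1 ± 36.2 CPM in het stimulated cells. The wide het spread came with 35.5 CPM in animal 1, while the other 4 het libraries had 74.2 to 131 CPM.

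Of the 2 nuclear genes, Pot1a had the smallest SE of the 9 in control and stimulated cells. It had 11.9, 10.3, 12.01, 11.96 and 13.7 CPM in KO cells, against 15.7, 11.2, 12.9, 12.7 and 12.1 CPM in het cells without stimulation. The groups overlapped, and the KO over het fold was 0.969, with a 95% interval of 0.819 to 1.15. After stimulation its fold was 0.894, with an interval of 0.755 to 1.06. Pot1a and its paralogue Pot1b are related in sequence, and how their reads were divided was not tested. Ing3 had a fold of 0.924 without stimulation (0.743 to 1.15) and 1.084 after it (0.872 to 1.35).

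Wasl, of the actin group, had 83.7, 67.8, 74.7, 75.5 and 101 CPM in KO control cells, against 126, 70.1, 81.5, 109 and 81.5 CPM in het control cells. As with Tspan12, the 2 highest values were those of het animals 1 and 9. Its KO over het fold was 0.903 without stimulation (95% interval 0.740 to 1.101) and 0.871 after it (0.714 to 1.06). Cadps2 had folds of 1.03 (0.592 to 1.80) and 1.23 (0.706 to 2.14). Its highest level in control cells was 14.6 CPM in animal 7, a het control library, and the stimulated library of the same animal, labelled KO, had the highest stimulated level, 11.1 CPM. These 2 libraries also had the highest summed fibroblast markers of the 6-gene list (Col1a1, Col1a2, Col3a1, Pdgfra, Pdgfrb, Dcn; all detected), 12417 CPM stimulated and 15166 CPM control, while the remaining 18 libraries held 31.5 to 5155 CPM, and the part of these markers in the result was not tested.

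The 2 members of lowest level were Cped1 and Aass. Cped1 had 0.657, 0.888, 1.21, 0.617 and 3.64 CPM in KO control cells, against 0.343, 0.557, 1.24, 0.634 and 1.49 CPM in het control cells. Its point estimate was the highest of the 9, a fold of 1.66, with a 95% interval of 0.623 to 4.41. After stimulation it had 0.559, 1.26, 1.36, 1.23 and 2.35 CPM in KO cells, against 0.458, 0.989, 0.551, 0 and 1.17 CPM in het cells, a fold of 2.10 (0.782 to 5.65). Both groups rest on few reads, 117 counts in 5 KO and 58 counts in 5 het libraries after stimulation. Aass had 38 counts in KO and 37 in het stimulated cells in all, and folds of 0.965 (0.482 to 1.93) without stimulation and 1.03 (0.499 to 2.12) after it.

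**Figure D2:**
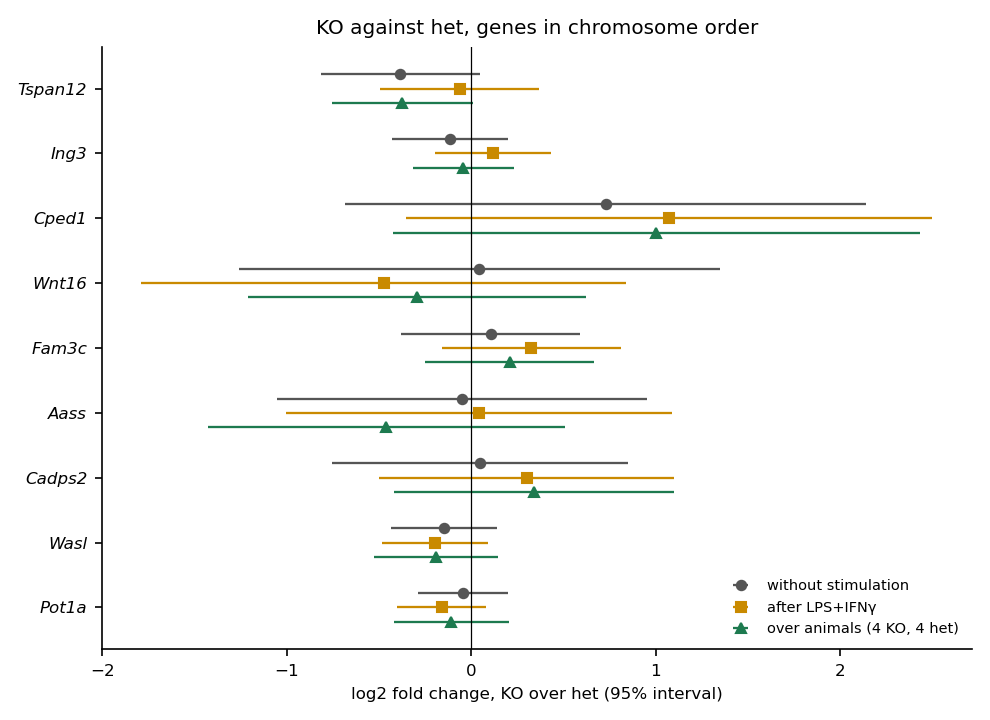
Points give the log2 fold change of each gene, KO over het, on the x axis, with 95% intervals as lines, for control cells, for stimulated cells and for counts summed per animal (4 KO and 4 het animals). Every interval holds 0, and in control and stimulated cells the intervals are narrowest for Pot1a and widest for Cped1.

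The same comparison was made over animals, with the stimulated and the control counts of an animal summed, so that it does not depend on which library is labelled stimulated. No member and none of 15032 genes (0%) was called by edgeR at an adjusted p under 0.05, with 0 members and 284 genes (1.89%) at an unadjusted p under 0.05. DESeq2 and limma-voom also called 0 genes. By edgeR the members' median absolute log2 fold change was 0.30, beside 0.14 over all genes, with 3 higher and 6 lower. Whether the members differ from other genes as a set was not tested. Tspan12 came nearest, at 11.9, 10.4, 11.2 and 12.1 CPM in KO animals 3, 6, 8 and 10, against 14.2, 10.9, 15.7 and 20.8 CPM in het animals 1, 2, 4 and 9. Het animal 2 lay inside the KO range and the other 3 het animals above it. The means were 11.4 ± 0.793 CPM in KO and 15.4 ± 4.13 CPM in het animals (SD, n = 4 each), and the fold was 0.772, with a 95% interval of 0.592 to 1.01. Its edgeR p was 0.0548 before and 0.987 after adjustment over all genes, and DESeq2 gave an unadjusted p of 0.0438. Wasl averaged 80.4 ± 5.996 CPM in KO and 95.1 ± 22.3 CPM in het animals, and Pot1a 11.4 ± 0.428 CPM in KO and 12.7 ± 1.96 CPM in het animals. For Tspan12, Wasl and Pot1a the spread among het animals was thus wider than among KO animals, and the highest value of each gene was that of het animal 1 or 9.

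Het animals 1 and 9 stood apart in markers as well. Of the 6 proximal tubule markers (Lrp2, Cubn, Slc34a1, Slc5a2, Aqp1, Hnf4a) all 6 were detected in their control libraries, with sums of 511 and 464 CPM, while the remaining 8 control libraries held 33.5 to 131 CPM. The leukocyte list (Ptprc, Cd68, Adgre1, Csf1r, Lyz2, Cd3e) summed to 83.0 CPM in animal 1 and 325 CPM in animal 9, while the remaining 8 held 5.73 to 21.0 CPM, with 5 of 6 markers detected and the T cell marker Cd3e at 0 counts in all 20 libraries. In bulk cultures fewer cells of a type and less RNA per cell cannot be told apart, and the part of these markers in the members' values was not tested. Without animals 1 and 9, a choice made after seeing the data, the Tspan12 difference was −0.14 ± 0.19 on the log2 scale in control cells and −0.22 ± 0.16 over animals. The Wasl difference then changed sign, to 0.060 ± 0.084 in control cells, 0.0019 ± 0.084 in stimulated cells and 0.049 ± 0.090 over animals. The Cped1 difference was 0.33 ± 0.58 in control and 0.58 ± 0.59 in stimulated cells, within 1 SE of 0. Without animals 4 and 8 edgeR called 0 members and 0 of 14630 genes (0%) in either state, and at an unadjusted p under 0.05 it had 0 members beside 5.29% of genes in control and 5.38% in stimulated cells. At an unadjusted p under 0.05 limma-voom had 0 members in control cells and 1, Cped1, in stimulated cells, beside 565 of 14630 genes. DESeq2 had 0 members in each state, and neither tool called a gene in these 16 libraries. The groups of all 9 members overlapped there too, as did those of all but 1.76% of genes in control and 1.65% in stimulated cells. In these 16 libraries the Cped1 difference was 1.22 ± 0.79 in control and 1.41 ± 0.80 in stimulated cells, and the Tspan12 difference in control cells was −0.36 ± 0.24.

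The wider stretch was described by gene order. Of the 40 tested genes made up of 20 on each side of Ptprz1, edgeR called 0 in any KO against het comparison. At an unadjusted p under 0.05 there were 3 of 40 in control cells (7.5%), beside 4.12% of the other chromosome 6 genes and 3.43% of all genes. In stimulated cells there were 0 of 40, beside 2.74% and 2.51%, and over animals 2 of 40 (5%), beside 2.29% and 1.89%. The median absolute log2 fold change was 0.13 in the 40 genes and 0.15 in the rest of chromosome 6 in control cells, 0.16 and 0.15 in stimulated cells, and 0.22 and 0.14 over animals. With 10 genes on each side it was 0.14, 0.21 and 0.22, beside 0.15, 0.15 and 0.14 in the rest. With 40 on each side it was 0.12, 0.18 and 0.20, beside 0.15, 0.15 and 0.14. Of the 40 genes, the 3 with the lowest p in control cells were Cftr, the chloride channel of epithelia, at −1.27 ± 0.43, Tfec, a transcription factor, at −2.70 ± 1.07 and Iqub, next to Cadps2, at 2.19 ± 0.95, with an edgeR adjusted p of 0.999 each. Over animals they were Cftr at −1.17 ± 0.46, Tfec at −2.53 ± 1.07 and Tspan12, and in stimulated cells Cav2 at −0.52 ± 0.25, Impdh1 at −0.38 ± 0.23 and Hilpda at −0.48 ± 0.29.

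Single animals stood out in these neighbours. Cftr had 17.1, 13.01, 7.99, 9.87 and 9.46 CPM in KO control cells, against 53.1, 8.30, 17.4, 49.4 and 20.6 CPM in het control cells. Tfec had 0.0775 to 2.93 CPM in the 5 KO control libraries, against 11.7, 0.929, 0.733, 24.8 and 1.78 CPM in het control cells. In both genes the 2 highest values were again those of het animals 1 and 9. Iqub, a cilium-related gene, went the other way, with 3.05, 1.097, 1.21, 0.370 and 2.71 CPM in KO control cells, against 0, 1.42, 0.169, 0.115 and 0.115 CPM in het control cells, and after stimulation its difference was −0.86 ± 0.95. Of 15 further genes listed for the stretch, 2 (Iqub and Ndufa5) passed the filter, and 4 of the rest had more than 10 counts over all libraries, with Tmem229a highest at 508.

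**Figure D3:**
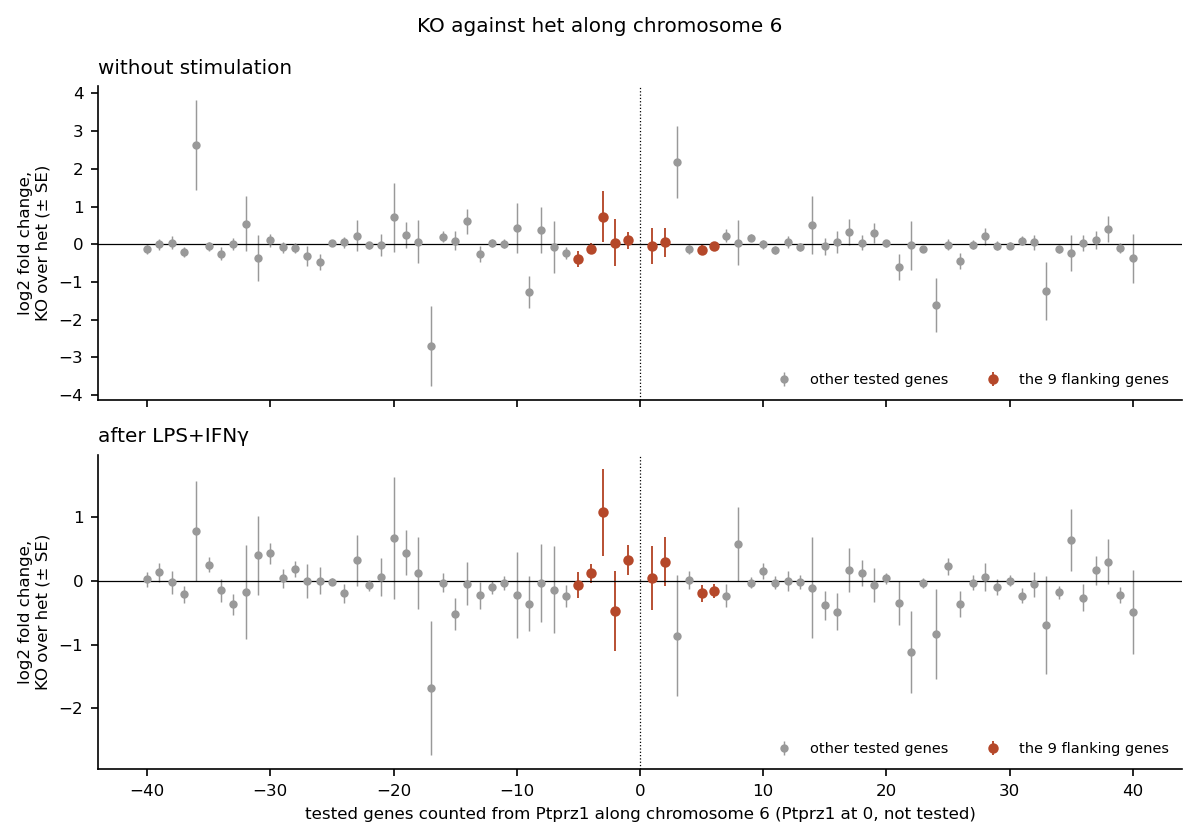
The x axis counts tested genes along chromosome 6 from Ptprz1, the y axis gives log2 fold changes (KO over het, ± SE) in control cells above and stimulated cells below, and colour marks the 9 flanking genes. The members lie between −0.39 and 0.73 in control cells and between −0.48 and 1.07 in stimulated cells, around the same 0 line as the genes farther out.

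The response to LPS with IFNγ was then read in each genotype. With all 20 libraries edgeR called 0 members and 0 genes (0%) in KO and in het cells, while 1307 genes (8.97%) in KO and 1981 genes (13.6%) in het cells were at an unadjusted p under 0.05. The members among these were Wnt16 in KO cells (edgeR adjusted p = 0.540) and Ing3 in het cells (edgeR adjusted p = 0.282). The groups overlapped in every member, as in all but 0.645% of genes in KO and 0.975% in het cells. DESeq2 called 115 genes in KO and 483 in het cells, limma-voom 0 in each, and neither called a member. Without the 4 libraries of animals 4 and 8, edgeR called 843 genes (5.76%) in KO and 1046 genes (7.15%) in het cells, and again 0 members. Of these, 139 genes (0.95%) in KO and 217 genes (1.48%) in het cells were lower after stimulation. At an unadjusted p under 0.05 were 2401 genes (16.4%) with Wnt16 in KO cells and 2993 genes (20.5%) with Ing3 in het cells. In these 16 libraries the stimulated and control groups did not overlap for Wnt16 in KO cells (18.6% of genes) and for Ing3 in het cells (12.7% of genes).

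Wnt16, the Wnt ligand, had the lowest point estimate of the 9 in both genotypes. In KO cells it had 21.9, 29.4, 8.93, 15.1 and 19.0 CPM stimulated, against 55.4, 46.7, 55.1, 11.8 and 82.9 CPM in control. The only control value below 29.4 CPM, the highest stimulated one, was that of animal 8. In het cells Wnt16 had 1.03, 39.98, 17.7, 23.0 and 51.4 CPM stimulated, against 44.0, 67.2, 23.0, 85.5 and 34.5 CPM in control, and these groups overlapped. Over all libraries the log2 fold change was −1.35 ± 0.63 in KO cells, beside −0.83 ± 0.63 in het cells, and without animals 4 and 8 it was −1.52 ± 0.68 (edgeR adjusted p = 0.269) in KO and −1.29 ± 0.67 (0.299) in het cells. The value of 1.03 CPM was that of animal 1, and without that library alone the het difference was −0.54 ± 0.48. Without animals 1 and 9, but with animal 4 kept, it was −0.16 ± 0.59.

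Ing3, the NuA4/TIP60 subunit, had a smaller difference with a smaller error. In KO cells Ing3 had 10.6, 9.76, 10.6, 11.3 and 11.7 CPM stimulated, against 12.4, 10.8, 12.7, 9.44 and 16.2 CPM in control, a log2 fold change of −0.14 ± 0.15. These KO groups overlapped. In het cells it had 6.46, 10.0, 9.06, 10.8 and 13.7 CPM stimulated, against 15.97, 12.8, 12.4, 15.96 and 12.4 CPM in control, and the only stimulated value within the control range was that of animal 4. The het log2 fold change was −0.37 ± 0.15 over all libraries and −0.52 ± 0.15 in 16 libraries, where the edgeR adjusted p was 0.0514, just above the threshold, while DESeq2 and limma-voom each called 1 member, Ing3, beside 1675 genes (11.5%) by DESeq2 and 925 genes (6.32%) by limma-voom. The Tspan12 log2 fold change was 0.0021 ± 0.21 in KO cells, beside −0.32 ± 0.21 in het cells. The remaining members had log2 fold changes between −0.56 (Aass, ± 0.49) and 0.20 (Cadps2, ± 0.38) in KO cells and between −0.65 (Aass, ± 0.49) and 0.053 (Wasl, ± 0.14) in het cells.

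Within animals the direction was more even. In the 6 animals of 1 genotype whose libraries follow the label, the stimulated level of Wnt16, Ing3, Tspan12 and Pot1a was lower than the control level in 6 of 6, with median ratios of 0.332, 0.744, 0.737 and 0.878. Of all tested genes 26% were lower in 6 of 6, and 11.5% were higher in 6 of 6, with 0 members among them. With CPM scaled by TMM factors, an alternative added after seeing the data, Wnt16, Ing3 and Tspan12 were again lower in 6 of 6. Pot1a was then lower in 4 of 6, with ratios of 1.141 and 1.013 in het animals 1 and 2. The shares over all genes in this paragraph are from CPM without TMM factors, and those with TMM factors were not computed. In KO animal 8 and het animal 4 the ratio of Wnt16 was 1.27 and 1.49, that of Ing3 1.20 and 1.101, and that of Tspan12 1.27 and 1.13, so that the library labelled stimulated was the higher of the pair in 2 of 2. This pattern of 6 lower and 2 higher was seen in 3 of the 9 members and in 15.6% of all tested genes. The Wnt16 ratio was 0.395, 0.534 and 0.229 in KO animals 3, 6 and 10, against 0.0234, 0.595 and 0.270 in het animals 1, 2 and 9. Fam3c was lower in 4 of 6, Wasl in 5 of 6 (2 of 6 with TMM factors), Aass in 4 of 6, Cped1 in 3 of 6 and Cadps2 in 2 of 6. Het animal 1 had the lowest ratio of the 6 for Wnt16, Ing3, Tspan12, Fam3c and Aass.

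**Figure D4:**
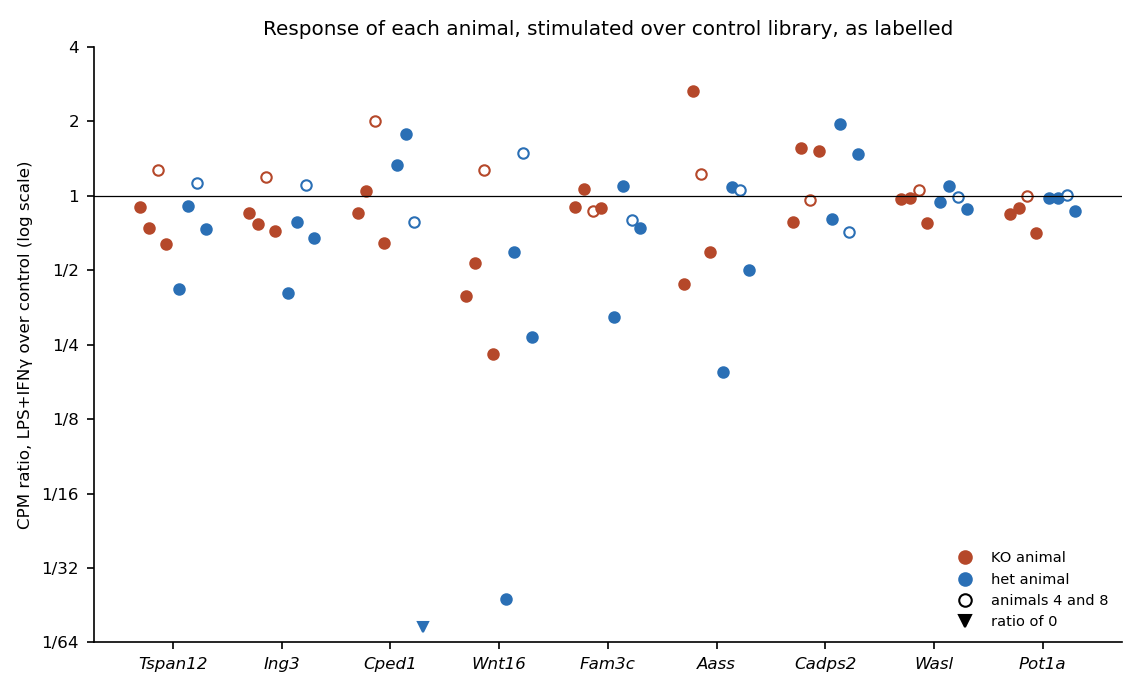
The y axis, on a log scale, gives the CPM ratio of the stimulated to the control library of each of 8 animals for each gene, with KO animals left of het animals and open points for animals 4 and 8. Wnt16, Ing3 and Tspan12 lie below 1 in the 6 filled points and above 1 in the 2 open ones, and the triangle marks Cped1 in het animal 9, with 0 counts after stimulation.

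With the animal as a block in these 6 animals, an analysis added after seeing the data, edgeR called 1672 of 14776 genes (11.3%) in KO and 2388 (16.2%) in het cells, and 0 members. Lower were 661 (4.47%) in KO and 1020 (6.9%) in het cells. The blocked log2 fold changes in KO cells were −1.38 ± 0.62 for Wnt16 (edgeR adjusted p = 0.218), −0.29 ± 0.17 for Ing3 (0.344) and −0.34 ± 0.20 for Tspan12 (0.339). In het cells they were −2.12 ± 0.68 for Wnt16 (edgeR adjusted p = 0.0764), −0.61 ± 0.17 for Ing3 (0.0539) and −0.48 ± 0.20 for Tspan12 (0.139). The calls depended on the tool, since DESeq2 called Ing3 (adjusted p = 0.0442) and Wnt16 (0.0242) in het cells and limma-voom called Ing3 (0.0478), beside 2905 genes (19.7%) by DESeq2 and 2982 genes (20.2%) by limma-voom. The members called, 2 of 9 by DESeq2 and 1 of 9 by limma-voom, were a share near or below that of all genes. Neither called a member in KO cells. Whether the responses of KO and het cells differ was tested as an interaction. EdgeR called 0 members and 0 genes (0%) over all libraries, with 0 members and 138 genes (0.947%) at an unadjusted p under 0.05, DESeq2 called 1 gene and limma-voom 0. In 16 libraries edgeR again called 0, with 0 members and 1.53% of genes at an unadjusted p under 0.05. The difference of the responses, KO minus het, was −0.52 ± 0.88 for Wnt16 (95% interval −2.37 to 1.33), 0.23 ± 0.21 for Ing3 (−0.21 to 0.68) and 0.32 ± 0.29 for Tspan12 (−0.29 to 0.93). The sign for Wnt16 depended on the fit, at 0.17 ± 1.06 by limma-voom over all libraries and, with the animal block in 6 animals, 0.73 ± 0.91 by edgeR, 1.01 ± 1.17 by DESeq2 and 0.27 ± 0.81 by limma-voom.

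Genes that work with the members were listed to see whether a partner differed between genotypes. Of 14 tested genes of the WASP family and Arp2/3 complex, 15 of the NuA4/TIP60 complex, 6 of shelterin, 5 of lysine breakdown, 9 Norrin and Wnt receptors or feedback genes and 1 paralogue of Fam3c, edgeR called 0 in any comparison. In control cells 9 of the 14 WASP and Arp2/3 genes, 8 of the 15 NuA4/TIP60 genes, 2 of the 6 shelterin genes, 1 of the 5 lysine genes and 2 of the 9 Norrin and Wnt genes were above 0, with median log2 fold changes of 0.062, 0.023, −0.063, −0.12 and −0.24 beside 0.0020 over all genes. In stimulated cells the Norrin and Wnt genes had 8 of 9 above 0, with a median of 0.40 beside −0.0020 over all genes. The gene of lowest p in control cells was Arpc1a at −0.17 ± 0.076, Mbtd1 at −0.38 ± 0.13, Acd at −0.18 ± 0.10, Crym at −2.39 ± 0.89, Lrp5 at −0.49 ± 0.38 and Fam3a at 0.10 ± 0.095 on the log2 scale, KO over het. In stimulated cells it was Arpc3 at −0.12 ± 0.083, Yeats4 at −0.17 ± 0.10, Terf1 at −0.38 ± 0.23, Crym at −2.80 ± 0.97, Notum at 3.12 ± 1.16 and Fam3a at 0.20 ± 0.095. Crym, which binds thyroid hormone and acts on a lysine breakdown product, had 0.115 to 0.717 CPM in KO control cells, against 5.78 and 4.84 CPM in het animals 1 and 9 and 0.186 to 0.630 CPM in the other 3 het control libraries. Notum, a secreted enzyme that inactivates Wnt ligands, had 1.17, 3.22, 4.79, 0 and 26.3 CPM in KO stimulated cells, against 0.686, 1.72, 0.367, 0.990 and 0.319 CPM in het stimulated cells, with its highest value in animal 10.

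For each member the genes of most similar level across the 20 libraries were found by Spearman's rho among genes averaging at least 1 CPM, as a description, since libraries of 1 animal and 1 stimulus share their source. Ing3 was most like Glul (rho 0.941) and Spata2l (0.934), Fam3c like Zfp334 (0.904) and Mark1 (0.901), and Cped1 like Ltbp4 (0.890) and Srpk2 (0.881). Wnt16 was most like Bicc1 and Ift74 (0.887 each), Tspan12 like Mccc2 (0.886) and Acss3 (0.881), and Pot1a like Nemp2 (0.857) and Ctdspl2 (0.839). Wasl was most like Ston2 and Syngr2 (0.832 each), Cadps2 like Sim1 (0.798) and Zmynd19 (0.785), and Aass like Mccc1 (0.741) and Tomm6 (0.728). None of the 9 members was among the 2 genes most like another member. With 12103 candidates and 2 places each, this says little about how alike the members are, and Aass, below 1 CPM, was no candidate. Between members, Pearson's r of deviations from the group means ranged from −0.658 (Wnt16 and Pot1a) to 0.836 (Ing3 and Wnt16).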

How the data were processed

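Per the labels' protocols, total RNA of cultured kidney tubule cells was made into 20 strand-marked libraries. The deposited table holds whole-number values for 55891 Ensembl IDs, and Salmon 1.10.2, DESeq2 1.45.3, R 4.4.1, FastQC 0.11.9 and the build GRCm39 appear in the submitters' processing notes with no role given. Since Salmon estimates counts, the deposited values are taken here for estimated counts, of which rounding changed 0. The sources used here do not say how transcripts were summed to genes. Symbols were found for 51425 IDs (92.0%). Names, gene order and merged exon lengths came from a GRCm38 annotation, so no gene coordinates are given for the counts.

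CPM is the count scaled to a common library total. Counts were tested in R 4.3.3 with edgeR 4.0.16 (TMM scaling, factors 0.940 to 1.13, filterByExpr, robust quasi-likelihood test), fitting the 4 group means to the 20 libraries together, and separately to counts summed per animal. Called means p under 0.05 after Benjamini-Hochberg adjustment over every gene tested. The SE is the log2 fold change divided by the square root of F, and 95% intervals use the test's degrees of freedom. DESeq2 1.42.0, limma-voom (limma 3.58.1), other scalings and filters, left-out libraries and replicate blocks were alternatives. The edgeR fits of groups and of summed animals were run on simulated counts, drawn independently for each library or animal. The simulation held no libraries that share an animal and none against their label, so it cannot check the fits on these points. The 5 libraries of a group come from 5 animals, so p-values measure the spread between animals together with that of culture and library preparation. With all 20 libraries, each group holds a library against its stimulation label, so the spread also contains part of the stimulus difference. The fit of 4 group means does not pair the libraries of an animal, and takes the 20 libraries of 10 animals as independent. With the animal as a random effect, limma-voom estimated a consensus correlation of 0.458 between libraries of an animal. The limit allowed by a count of 0 covers counting error only.

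Libraries were grouped by title. Animal IDs pair stimulated and control libraries. Both libraries of an animal deviated together in 6 animals (r 0.405 to 0.623), but not in animals 4 and 8 (−0.206 and −0.298). Deviations were taken from the means of the labelled groups. Since the libraries of animals 4 and 8 go against their labels, r cannot tell whether their 2 libraries share an animal. The 9 members, the lists, the left-out libraries and the tests were chosen with earlier results of these data known. Named beside the members are the 3 genes of lowest p within 20 tested genes on each side of Ptprz1, the gene of lowest p in each list, and the 2 genes most like each member. Of 127 listed symbols 126 were found. A further marker and a motif are not reported here.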

Additional observations from a re-analysis of the deposited data

Results flagged for a closer look

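In 54 sets of 4 or 5 libraries or animals, 1 per member and group, the highest or lowest value was set against the others by Dixon's criterion, which chance meets in about 1 of 20 sets. It was met by 2 sets. Cped1 was at 3.64 CPM in KO control replicate 5 (animal 10), the highest of 5 libraries, with 0.617 to 1.21 CPM in the other 4. The stimulated library of the same animal also had the highest Cped1 level of its group, 2.35 CPM. Pot1a was at 15.4 CPM in het stimulated replicate 1 (animal 1), the highest of 5, with 10.98 to 12.2 CPM in the other 4, and the control library of that animal was the highest of its group too, at 15.7 CPM.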

How the results depend on the processing

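EdgeR called no member in any alternative tried. These covered DESeq2 size factors, both other filters, left-out libraries and animals, and the compared groups alone. They also covered a replicate block on the replicate number (KO against het) or on the animal. The fit with the animal as a random effect was made by limma-voom, which called no member in it. DESeq2 and limma-voom called no member with all libraries or over animals. In het cells both called Ing3 in 16 libraries and in the animal block of 6 animals, and DESeq2 also called Wnt16 in that block, beside 6.32% to 20.2% of all genes called by these fits. The replicate numbers do not pair KO with het libraries, and 5 of 10 such pairs correlated above 0.1. The tally below leaves out the DESeq2 and limma-voom fits of 16 libraries and of the animal block in 6 animals. Those fits made the calls of Ing3 and Wnt16. Of 552 alternative values of the members, 486 kept their sign and their side of the threshold and 66 changed sign, 59 of them with a main value within 1 SE of 0. The other 7 all came from leaving out animals 1 and 9 and are those of Wasl and Fam3c in KO against het cells or animals and of Aass in the het response and over animals. The log2 values that changed sign follow, with the main value in parentheses. In KO against het control cells, Wnt16 (0.044) was −0.040 by limma-voom, −0.12 without animals 5 and 7 and −0.18 with the animal as a random effect. Cadps2 (0.046) was −0.00092 in 16 libraries and −0.15 without animals 1 and 9. Pot1a (−0.045) was 0.0048 without animals 5 and 7 and 0.0020 without animals 1 and 9. Fam3c (0.11) was −0.0053 without animals 1 and 9. Aass (−0.051) was 0.65 without animals 1 and 9. Wasl (−0.15) was 0.060 without animals 1 and 9. In KO against het stimulated cells, Wnt16 (−0.48) was 0.13 by limma-voom and 0.35 with the animal as a random effect. Tspan12 (−0.064) was 0.0056 with the animal as a random effect and 0.032 in 16 libraries. Aass (0.041) was −0.0067 with a replicate block on the replicate number and −0.082 without animals 1 and 9. Ing3 (0.12) was −0.020 without animals 1 and 9. Fam3c (0.32) was −0.015 without animals 1 and 9. Wasl (−0.20) was 0.0019 without animals 1 and 9. In the KO response, Tspan12 (0.0021) was −0.0068 with DESeq2 size factors, −0.0057 by DESeq2, −0.0057 by limma-voom, −0.017 with no filter on low counts, −0.0027 with a filter at 1 CPM, −0.053 with the animal as a random effect, −0.072 in 16 libraries, −0.18 without animals 5 and 7, −0.016 with the compared groups alone, −0.18 with the animal block in 8 animals and −0.34 with the animal block in 6 animals. Wasl (0.0022) was −0.0064 with DESeq2 size factors, −0.0061 by DESeq2, −0.017 with no filter on low counts, −0.0033 with a filter at 1 CPM, −0.012 in 16 libraries, −0.051 without animals 5 and 7, −0.016 with the compared groups alone, −0.0041 with the animal as a random effect, −0.045 with the animal block in 8 animals and −0.078 with the animal block in 6 animals. Cped1 (0.035) was −0.11 in 16 libraries, −0.10 without animals 5 and 7 and −0.21 with the animal block in 6 animals. Fam3c (−0.020) was 0.025 in 16 libraries. In the het response, Cadps2 (−0.049) was 0.050 by limma-voom, 0.047 in 16 libraries, 0.27 without animals 5 and 7, 0.13 with the animal as a random effect, 0.28 with the animal block in 8 animals and 0.54 with the animal block in 6 animals. Aass (−0.65) was 0.17 without animals 1 and 9. Pot1a (0.031) was −0.000090 without animals 1 and 9. In the difference of the responses, Wnt16 (−0.52) was 0.17 by limma-voom, 0.53 with the animal as a random effect, 0.51 with the animal block in 8 animals and 0.73 with the animal block in 6 animals. Cadps2 (0.25) was −0.17 without animals 5 and 7, −0.036 with the animal block in 8 animals and −0.19 with the animal block in 6 animals. Cped1 (0.34) was −0.029 with the animal block in 6 animals. Fam3c (0.22) was −0.010 without animals 1 and 9. Aass (0.092) was −0.73 without animals 1 and 9. In the comparison over animals, Ing3 (−0.043) was 0.033 without animals 4 and 8. Fam3c (0.21) was −0.10 without animals 1 and 9. Aass (−0.46) was 0.0027 without animals 1 and 9. Wasl (−0.19) was 0.049 without animals 1 and 9. Leaving out 1 library or animal, 900 of 972 values kept their sign and side, and the 72 that changed sign, in 20 results, had a main value within 1 SE of 0. In KO against het control cells the ranges were −0.18 to 0.29 for Wnt16, −0.52 to 0.34 for Aass, −0.23 to 0.42 for Cadps2 and −0.081 to 0.012 for Pot1a. In KO against het stimulated cells the ranges were −0.21 to 0.053 for Tspan12, −0.00067 to 0.23 for Ing3 and −0.10 to 0.20 for Aass. In the KO response the ranges were −0.14 to 0.074 for Tspan12, −0.28 to 0.70 for Cped1, −0.095 to 0.038 for Fam3c and −0.055 to 0.071 for Wasl. In the het response the ranges were −0.62 to 0.0070 for Cped1, −0.24 to 0.33 for Cadps2, −0.10 to 0.17 for Wasl and −0.10 to 0.10 for Pot1a. In the difference of the responses the ranges were −0.30 to 0.55 for Aass, −0.12 to 0.52 for Cadps2, −0.16 to 0.10 for Wasl and −0.18 to 0.0052 for Pot1a. In the comparison over animals the range was −0.12 to 0.0050 for Ing3. The Ptprz1 difference, KO minus het in mean CPM, ranged from −0.070 to 0.042 in control and from −0.090 to 0.024 in stimulated cells with 1 library left out, and was −0.091 in control cells of the 16 libraries. The count of all genes called in the KO response was 0, but 152 without KO stimulated replicate 4, 115 by DESeq2, 843 in 16 libraries and 1672 with the animal block in 6 animals. In the het response it was 0, but 123 without KO stimulated replicate 4, 744 without het stimulated replicate 5, 483 by DESeq2, 1046 in 16 libraries and 2388 with that block. DESeq2 called 2 genes in KO against het control cells and 1 in the difference of the responses. The causes were not tested. With 10 or 40 genes on each side of Ptprz1, edgeR called 0 in KO against het comparisons, as over all genes. At an unadjusted p under 0.05 were 2 of 20 (10%) and 7 of 80 (8.75%) in control cells. The other chromosome 6 genes had 4.14% and 3.73%. Stimulated cells had 0 of 20 and 2 of 80, beside 2.66% and 2.60%. Over animals there were 1 of 20 and 3 of 80, beside 2.37% and 2.28%. Cped1 and Aass rest on 356 and 200 counts in all.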
